A study of Arabidopsis thaliana with 18 samples.

Results

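Plant cells are enclosed by a wall of cellulose, hemicelluloses and pectin, and 75 of the 22746 Arabidopsis probe sets on the ATH1 array were named for protein families that build or remodel it. They were chosen by symbol alone, at every signal level, as probe sets with exactly 1 gene in the platform's probe table and a name starting with TBL, EXP, EXL, GH9, CSL, CESA, XTH, XTR, BXL or PME. The symbols gave 22 TBL proteins, 18 expansins, 15 GH9 glucanases, 9 XTH enzymes, 8 CSL synthases and 3 PME entries, and no probe set named CESA, XTR or BXL. A further 4 matching probe sets held several genes and were not used. Of the 3 PME entries, PMEAMT matched by its letters only, since it encodes a phosphoethanolamine N-methyltransferase of lipid metabolism and no wall protein, which leaves 74 wall members.

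The arrays measured total RNA of the Arabidopsis thaliana accession Mt-0. On 9 arrays the plants had received SA at 0.3 mM together with the surfactant silwet at 0.02%, and on 9 arrays silwet at 0.02% alone. SA is taken to mean salicylic acid, a hormone of plant immunity. Serial numbers in the titles group the arrays into 3 sets, each with 3 SA and 3 silwet arrays, and the labels used here give neither the meaning of the sets nor tissue, plant age or harvest time.

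The primary wall of a growing cell is a network of cellulose fibrils in a gel of hemicelluloses and pectin, and the wall has to yield for the cell to enlarge. Expansins loosen the contacts between polysaccharides without cutting them, XTH enzymes cut and rejoin xyloglucan, and GH9 proteins are endo-1,4-beta-glucanases. CSL synthases include the enzymes that make hemicellulose backbones, and TBL proteins include the enzymes that attach acetyl groups to wall polysaccharides. Pectin methylesterases (PME) remove methyl groups from pectin. In leaves, salicylic acid is best known for turning on defence against pathogens.

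Values are MAS5 signals on a linear intensity scale, and differences are given on the scale of log2(signal + 16), which understates the change of weakly measured genes. Of the 75 members, 40 were among the 13647 probe sets tested with limma, which are the upper 60% when ranked by mean log2 value. The filter lay at a mean log2 value of 5.12, with XTH29 just inside at 5.15 and XTH18 just outside at 5.11. Those tested were 13 TBL members, 9 expansins, 6 CSL members, 5 GH9 members, 4 XTH members and the 3 PME entries. As the filter uses the mean over all arrays, a member high in a single group can pass through that group. This held for XTH29, whose mean without the SA arrays of set 1 was 5.08, and for no other tested member, so tests of XTH29 in set 1 are no support for a difference.

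Every array had been scaled to a trimmed mean of 100.01, and the median signal per array ran from 27.5 to 37.3. The 3 SA arrays of set 1 stood apart from the other 15 on the first principal component, at 52.8 to 67.7 against at most 24.1. They also had the lowest log2 ratios of 3′ to 5′ ubiquitin control signal, 0.706 to 1.12, against 1.15 to 1.81 on the other 15 arrays, while their actin and GAPDH ratios lay within the range of the others. This ratio moved with every SA difference of set 1 given below, and its part in them was not tested. Nothing in the labels ties the replicates to separate plants or harvests, and p-values therefore measure the spread between arrays, which may be technical, and the number of arrays limits the precision. In RNA from whole samples, fewer cells of a type and less RNA per cell cannot be told apart.

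In set 1, 6 of the 40 tested members were lower under SA and 1 was higher (adjusted p under 0.05, limma). The 6 that fell were TBL26, TBL45, TBL25, TBL39, the xyloglucan enzyme XTH32 and the expansin EXPA9, and the 1 that rose was PME61, named as a pectin methylesterase. The 7 called members are 17.5% of those tested, where 12.8% of all 13647 probe sets were called. By direction, 6.05% of all probe sets were called lower and 6.8% higher. The median difference was -0.32 over the members and -0.11 over all probe sets tested, and 31 of 40 members (77.5%) lay below 0, compared with 62.8% of all probe sets. The median standard error of a set 1 difference was 0.215 over all probe sets tested.

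Within each set, SA and silwet arrays of the same replicate number form pairs, and with the pairs as a block limma called 16 members in set 1, 4 higher and 12 lower, where 27.9% of all probe sets were called (12% higher and 16% lower). The 16 held all 7 members called without the block. The members added were CSLC5, EXLA1, EXPB3, GH9B7, GH9B8 and GH9C2 among the lower ones, and PMEPCRF, TBL38 and XTH29 among the higher ones. XTH29 was in the fit only through its high SA arrays of set 1, so 3 of the 4 higher calls remain without it. Of these, EXPB3, GH9B7 and TBL38 are outside the rule for named genes and were chosen after their values were seen.

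**Figure D1:**
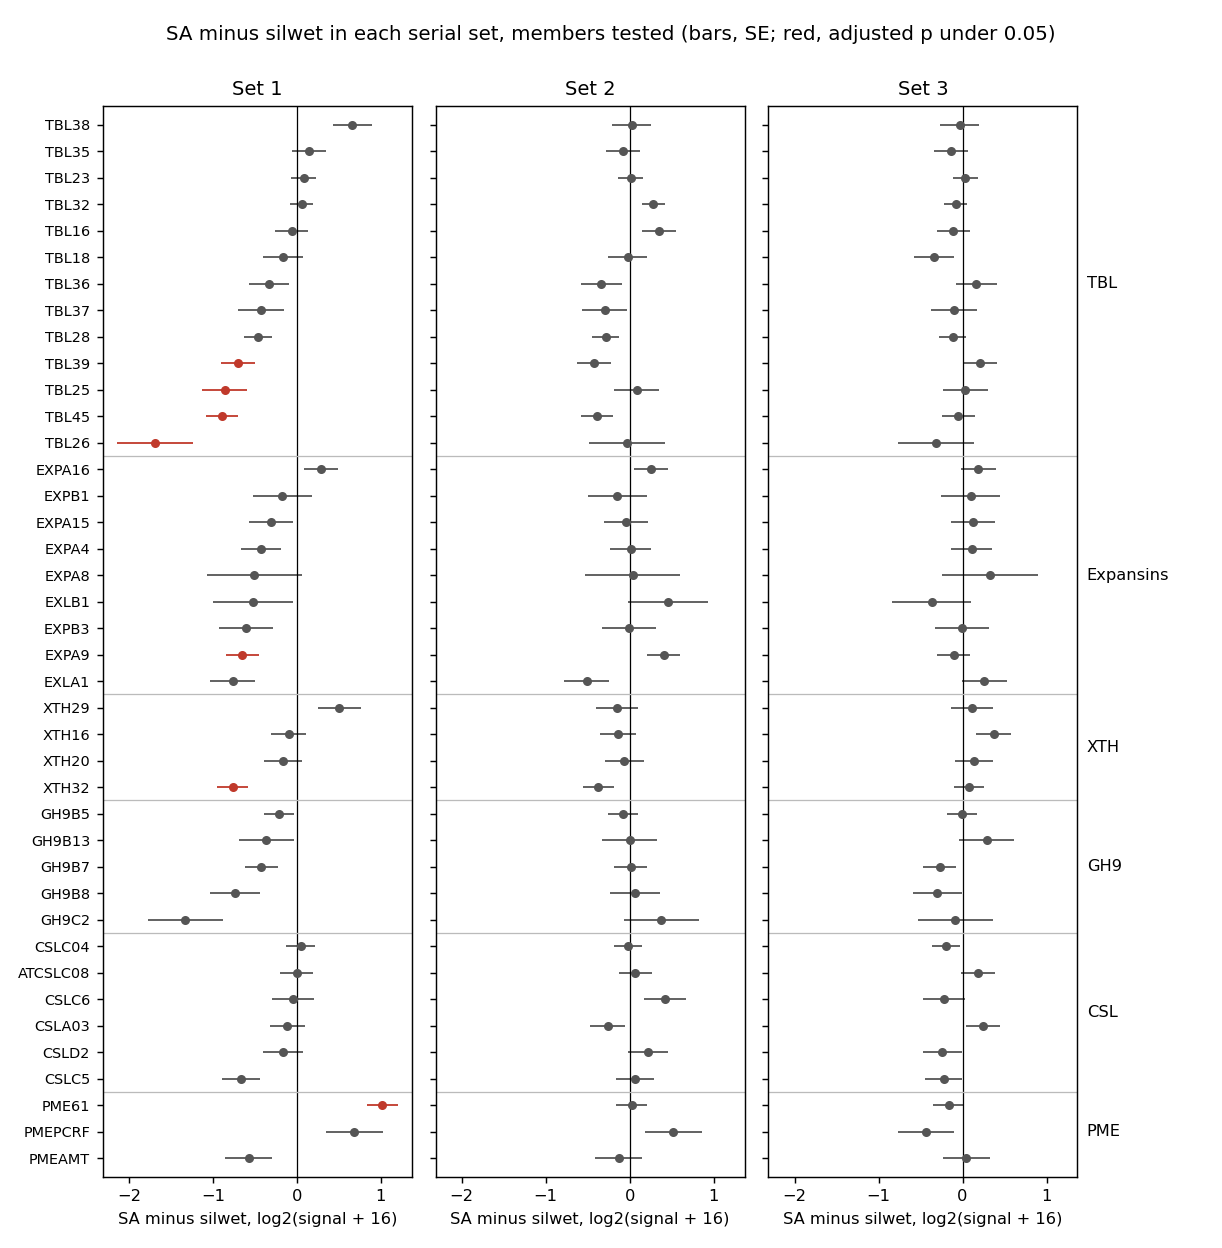
SA minus silwet on the log2(signal + 16) scale for the 40 tested members, by family and ordered within family by the set 1 value, with a panel for each of sets 1, 2 and 3 (points, differences from limma; bars, standard errors; red, adjusted p under 0.05). In set 1, 31 of the 40 points lie left of 0 and 7 are red, and no point is red in sets 2 or 3.

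Among the TBL proteins, 4 of the 13 tested fell in set 1 (6.05% of all probe sets) and none rose (6.8% of all). The family's median difference was -0.33, beside -0.11 over all probe sets tested. TBL26 (AT4G01080), a member of the group that acetylates mannans, had signals of 62.6, 54.4 and 36.3 on the SA arrays of set 1, against 135, 258 and 220 on its silwet arrays. All 3 SA arrays lay below all 3 silwet arrays. TBL26 fell by 1.69 ± 0.45 on the log2 scale (SE, 3 arrays against 3; limma adjusted p = 0.0203). This was the largest decrease among the members tested, and its call was lost without SA replicate 3, silwet replicate 2 or silwet replicate 3 of set 1.

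TBL25 (AT1G01430), a close relative of TBL26 with the same known activity, had 27.3, 72.5 and 64.8 on SA arrays and 71.4, 135 and 124 on silwet arrays of set 1. The groups overlapped by a narrow margin, since the lowest silwet array lay just under the highest SA array, but within each replicate number the SA array was lower. The difference was -0.86 ± 0.27 (SE; limma adjusted p = 0.0438, or 0.00115 with the arrays paired). The call was lost in 9 of the 18 fits that left out a single array, among them SA replicates 1 and 3 and silwet replicates 2 and 3 of set 1.

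TBL45 (AT2G30010) had 40.0, 42.6 and 59.4 on SA arrays and 101, 122 and 81.5 on silwet arrays, again without overlap. Its difference was -0.89 ± 0.19 (SE; limma adjusted p = 0.00622), and it kept its call without any single array. TBL39 (AT2G42570) had 18.2, 23.4 and 17.9 on SA arrays and 52.2, 45.7 and 30.9 on silwet arrays, with no overlap. The difference was -0.70 ± 0.20 (SE; limma adjusted p = 0.0301), and the call was lost without SA replicate 1 or 3 or silwet replicate 1 or 2 of set 1. No function of TBL45 or TBL39 beyond the family's is given here.

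The 9 other tested TBL members did not pass in set 1, with TBL38, chosen after its values were seen, at the upper end. It had 170, 99.5 and 132 on SA arrays and 69.4, 82.8 and 79.0 on silwet arrays, so that every SA array was higher, and its difference was 0.66 ± 0.23 (SE; limma adjusted p = 0.0693, or 0.0114 with the arrays paired). TBL23, which belongs with TBL25 and TBL26 among the mannan acetyltransferases, differed by 0.08 ± 0.15, and TBL32 and TBL35, known as xylan acetyltransferases, by 0.06 ± 0.14 and 0.14 ± 0.20 (SE). These 3 were also chosen after their values were seen, and none of them passed with or without the block.

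**Figure D2:**
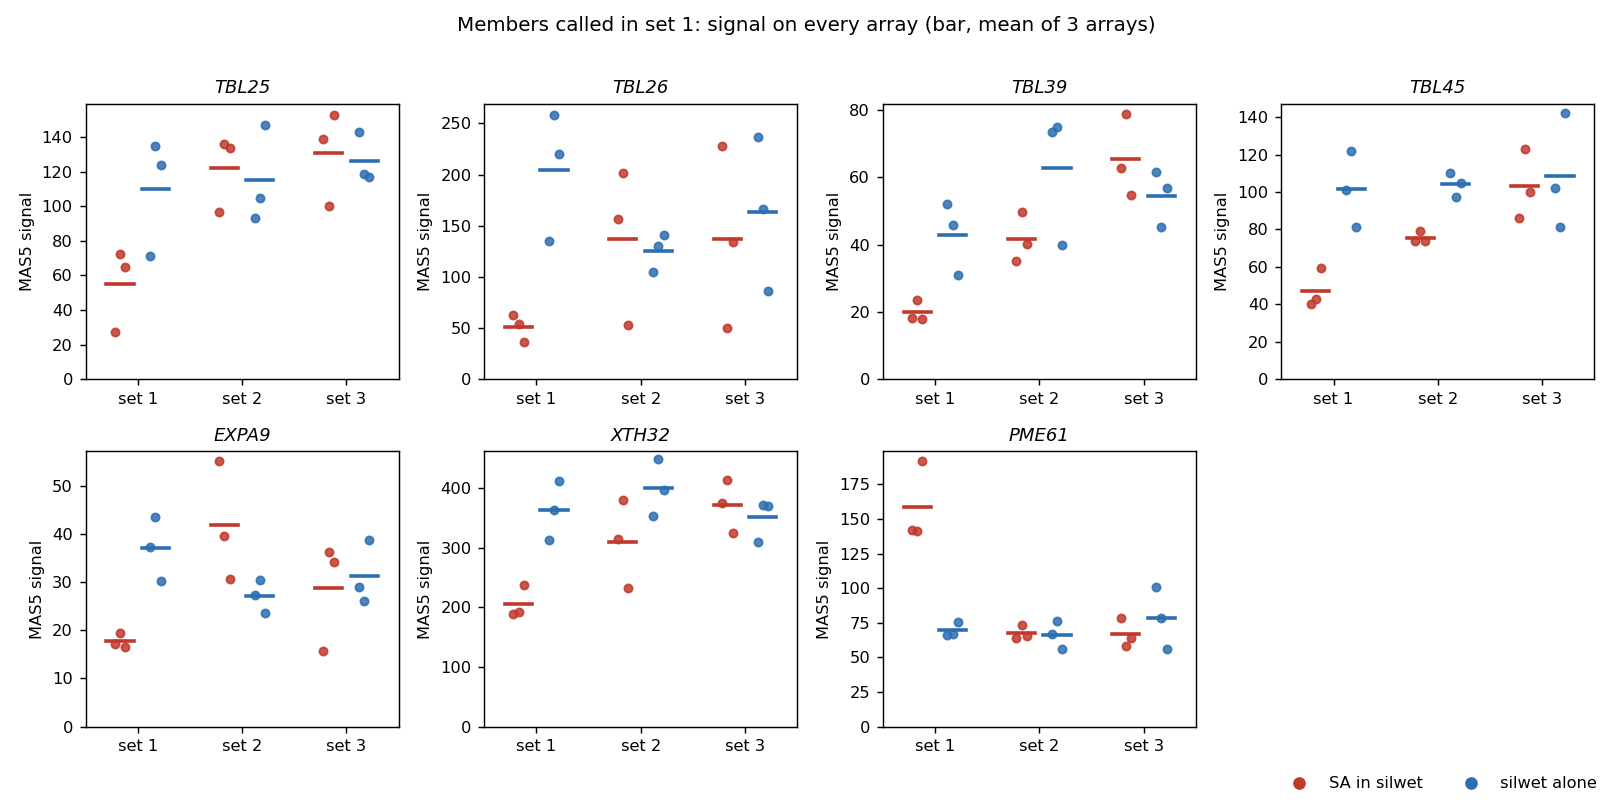
MAS5 signal (linear, axis from 0) on each of the 18 arrays for the 7 members called in set 1, by serial set, with SA arrays in red to the left of silwet arrays in blue (points, arrays; bars, means of 3 arrays). In set 1 the SA and silwet points are apart for every gene but TBL25, and in sets 2 and 3 they overlap except for TBL45 and EXPA9 in set 2.

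Of the 9 expansins tested, 8 had a difference below 0 in set 1, where 62.8% of all probe sets did. The family's median was -0.51, and 1 member passed the test as lower (6.05% of all). EXPA9 (AT5G02260), an alpha-expansin, had 17.1, 19.4 and 16.5 on SA arrays and 37.2, 43.4 and 30.3 on silwet arrays of set 1. The groups did not overlap, and EXPA9 fell by 0.65 ± 0.20 on the log2 scale (SE; limma adjusted p = 0.0369). The call was lost without any array of set 1 but silwet replicate 3, and also under quantile normalization (adjusted p = 0.0813) and scaling to the 75th percentile (adjusted p = 0.0607).

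EXLA1 (AT3G45970), an expansin-like protein, had 14.4, 20.7 and 15.7 on SA arrays and 41.1, 52.6 and 28.2 on silwet arrays, without overlap. Its difference of -0.76 ± 0.27 (SE) missed the threshold in limma without the block (adjusted p = 0.0688) and passed with the pairs (adjusted p = 0.00253). EXPA8 (AT2G40610), the expansin with the highest mean signal, had 36.9, 105 and 100 on SA arrays and 146, 94.4 and 104 on silwet arrays of set 1, which overlapped. The difference was -0.51 ± 0.57 (SE; limma adjusted p = 0.616).

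Of the 4 XTH members tested, 1 fell in set 1 (6.05% of all probe sets). XTH32 (AT2G36870) had 188, 192 and 238 on SA arrays and 312, 363 and 412 on silwet arrays, and the groups did not overlap. Its difference was -0.77 ± 0.18 (SE; limma adjusted p = 0.0112), and the call held without any single array. XTH29 (AT4G18990), close to the filter, had 22.0, 26.7 and 42.2 on SA arrays and 10.1, 14.6 and 25.3 on silwet arrays. These groups overlapped, and its difference was 0.51 ± 0.25 (SE), given as a description, since the same SA arrays carried it over the filter.

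All 5 GH9 glucanases tested lay below 0 in set 1, with a median of -0.43, where 62.8% of all probe sets lay below 0. None passed without the block (6.05% of all called lower), and 3 were called lower with it (16% of all). GH9C2 (AT1G64390), the family's member with the highest mean signal, had 66.4, 177 and 177 on SA arrays and 175, 492 and 485 on silwet arrays of set 1. The groups overlapped only through replicate 1, which was low in both treatments. The difference was -1.33 ± 0.45 (SE; limma adjusted p = 0.0611, and 0.00471 with the pairs). GH9B8 (AT2G32990) had 31.8, 43.6 and 47.5 on SA arrays and 47.0, 91.8 and 107 on silwet arrays, with a difference of -0.74 ± 0.29 (SE; limma adjusted p = 0.114, and 0.00444 with the pairs). Its lowest silwet array fell within the range of the SA arrays.

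Of the 6 CSL synthases tested, none passed in set 1 without the block, where 12.8% of all probe sets did. Their median difference of -0.08 was nearer 0 than that over all probe sets. CSLC5 (AT4G31590), of the family that makes the xyloglucan backbone, had 42.6, 63.4 and 48.9 on SA arrays and 80.5, 104 and 87.2 on silwet arrays. All SA arrays were lower, and the difference was -0.66 ± 0.23 (SE; limma adjusted p = 0.0628, and 0.00329 with the pairs). CSLC04 (AT3G28180), of the same family and with the highest mean signal among the CSL members, had 180, 216 and 218 on SA arrays and 177, 228 and 191 on silwet arrays. These overlapped throughout, and the difference was 0.04 ± 0.17 (SE; limma adjusted p = 0.901). CSLD2 (AT5G16910), known for its role in root hair growth, differed by -0.17 ± 0.24 (SE; limma adjusted p = 0.703).

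PME61 (AT3G59010) was the only member that rose without the block (6.8% of all probe sets). Its signals were 142, 141 and 192 on the SA arrays of set 1, against 66.2, 67.2 and 75.4 on its silwet arrays. No SA array came near a silwet array, and the 12 arrays of sets 2 and 3 ran from 56.2 to 101. The difference was 1.02 ± 0.18 (SE; limma adjusted p = 0.00191), and the call held without any single array. PMEPCRF (AT5G53370), another pectin methylesterase, had 186, 300 and 329 on SA arrays and 102, 212 and 182 on silwet arrays, which overlapped, and differed by 0.68 ± 0.34 (SE; limma adjusted p = 0.206, and 0.0152 with the pairs). PMEAMT (AT1G48600), the enzyme of lipid metabolism, averaged 257 ± 16 on SA arrays and 393 ± 64 on silwet arrays (SD, n = 3 each). The groups did not overlap, and its difference of -0.57 ± 0.28 (SE) did not pass (limma adjusted p = 0.202).

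Counted by overlap alone, 10 of the 40 tested members had all 3 SA arrays below all 3 silwet arrays in set 1, a separation found in 17.9% of all probe sets tested. Another 3 had all SA arrays above, as did 12.3% of all. In set 2, TBL45 was the 1 member with every SA array lower (5.42% of all probe sets), at 73.7, 79.2 and 73.8 on SA arrays and 110, 97.2 and 105 on silwet arrays. In the same set 5 members had every SA array higher (8.56% of all), among them EXPA9, whose SA arrays were the lower ones in set 1. For EXPA9 the margin in set 2 was narrow, with 30.7 on the lowest SA array and 30.5 on the highest silwet array. In set 3 no member was separated in either direction, where 2.7% of all probe sets were lower and 2.36% higher.

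**Figure D3:**
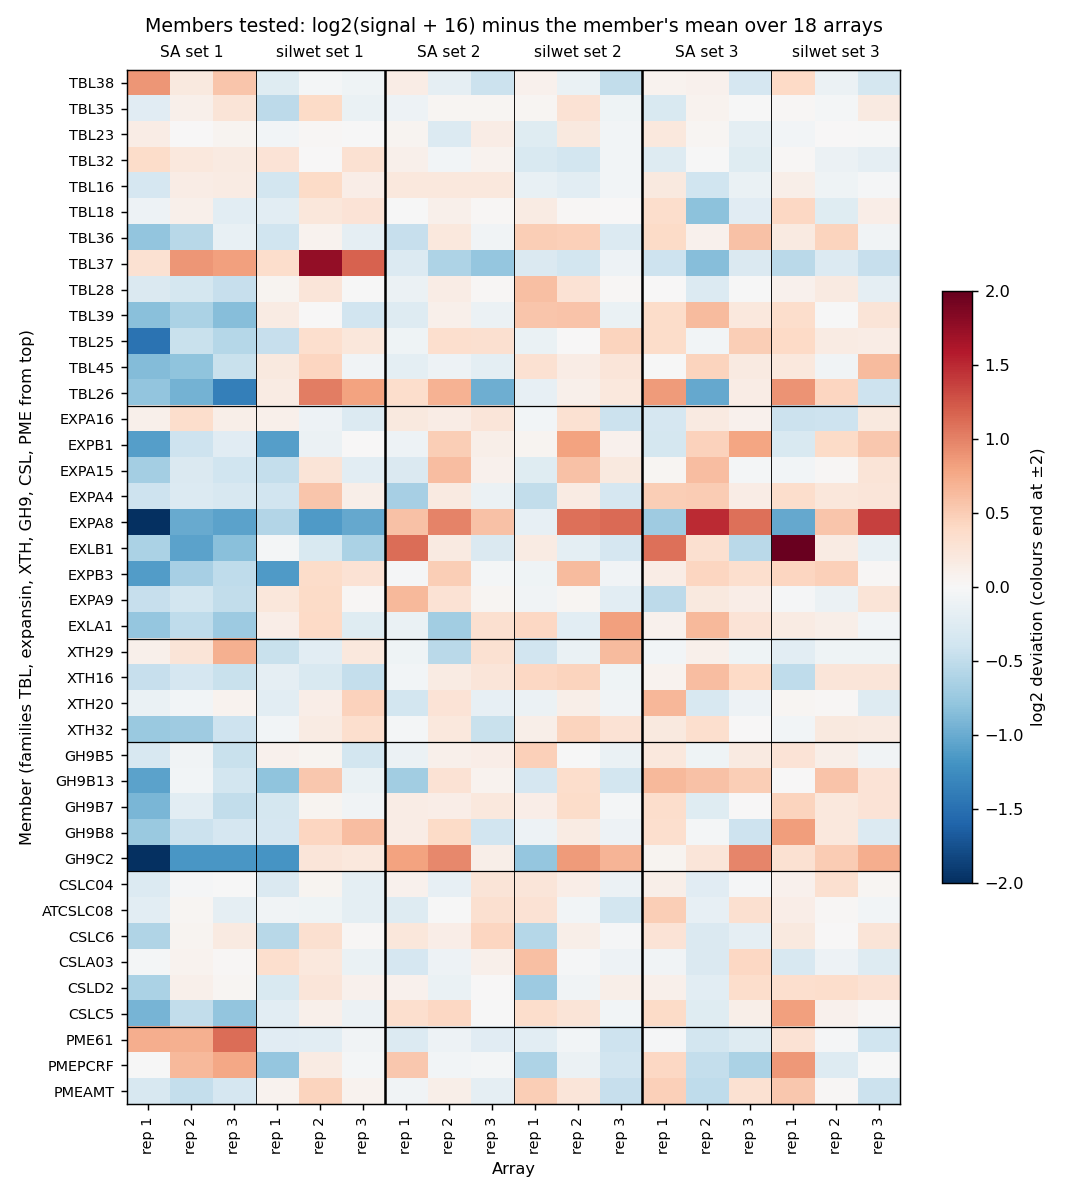
Deviation of log2(signal + 16) from each member's mean over the 18 arrays, for the 40 tested members by family, with a column per array and SA arrays left of silwet arrays within each set (red, above the mean; blue, below; colours end at ±2). The 3 leftmost columns are mostly blue, as is silwet replicate 1 of set 1, PME61 is at its reddest in those 3 columns, and TBL37 is red in all 6 columns of set 1.

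In sets 2 and 3 no SA difference of a member passed the test (0% of all probe sets called in either set), and no member had an unadjusted p under 0.05 in either set. Among all 13647 probe sets, 233 had such a p in set 2 and 187 in set 3. The members' median difference was -0.01 in set 2 and -0.02 in set 3, next to 0.01 and -0.01 over all probe sets. With the pairs as a block no probe set passed in either set, and an unadjusted p under 0.05 was found for 8 members and 1313 of all probe sets in set 2, and for 3 members and 955 probe sets in set 3. Pooled over the 3 sets, limma called none (0% of all), with an unadjusted p under 0.05 for 5 members and 218 probe sets. The 5 were TBL45, TBL28, XTH32, TBL26 and EXPA16, of which TBL28 and EXPA16 are named because of that p.

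Of the members that fell in set 1, TBL26, TBL25, TBL39 and XTH32 had overlapping groups in both later sets. TBL26 averaged 137 ± 77 in set 2 and 137 ± 89 in set 3 on SA arrays, and 125 ± 18 and 163 ± 75 on silwet arrays (SD, n = 3 each). XTH32 averaged 309 ± 73 and 371 ± 45 on SA arrays, and 399 ± 47 and 350 ± 35 on silwet arrays of the same sets (SD, n = 3 each). For TBL25 the SA means were 122 ± 22 and 131 ± 27, and the silwet means 115 ± 28 and 126 ± 14 (SD, n = 3 each). TBL39 averaged 41.7 ± 7.4 and 65.5 ± 12.2 on SA arrays, and 62.8 ± 19.9 and 54.5 ± 8.5 on silwet arrays (SD, n = 3 each), and its SA difference was -0.42 ± 0.20 in set 2 and 0.21 ± 0.20 in set 3 (SE), neither of which passed.

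Whether the SA difference itself changed between sets was tested as the difference of set 1 minus the mean difference of sets 2 and 3. It passed for 2 members (7.94% of all probe sets), PME61 at 1.09 ± 0.22 (SE; limma adjusted p = 0.00797) and EXPA9 at -0.80 ± 0.24 (SE; limma adjusted p = 0.0489). Once the arrays were paired, 10 members passed, as did 21.9% of all probe sets. They were PME61, EXPA9, TBL25, TBL26, TBL38, XTH32, GH9B8, GH9C2, CSLC5 and EXLA1. An F test over the differences of all 3 sets called PME61 alone among the members (limma adjusted p = 0.027; 3.52% of all probe sets), and 8 members with the pairs (18.2% of all). Of the other members called in set 1, TBL39 and TBL45 did not pass the contrast of set 1 with the later sets even with the pairs (adjusted p = 0.0765 and 0.0658), so a different SA effect in set 1 is not shown for them.

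On silwet arrays alone, 1 of the 40 tested members differed between sets by the F test (0.799% of all probe sets), TBL37 (AT2G34070; limma adjusted p = 0.011). In set 1 it had 73.6, 118 and 112 on SA arrays and 77.2, 229 and 149 on silwet arrays. The 12 arrays of sets 2 and 3 ran from 24.2 to 52.0, so every array of set 1 lay above every later array, whatever the treatment, as it did for 1.32% of all probe sets. On silwet arrays TBL37 differed by -1.35 ± 0.27 in set 2 minus set 1 and by -1.52 ± 0.27 in set 3 minus set 1 (SE; limma adjusted p = 0.0285 and 0.00746), comparisons in which 0.572% and 1.05% of all probe sets passed. The silwet call was lost without silwet replicate 2 or replicate 3 of set 1. SA minus silwet did not pass for TBL37 in any set, and was -0.43 ± 0.27 in set 1 (SE; limma adjusted p = 0.338). That value ran from -0.80 to -0.10 when a single array was left out, and it passed without silwet replicate 1 of set 1 (adjusted p = 0.0454).

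**Figure D4:**
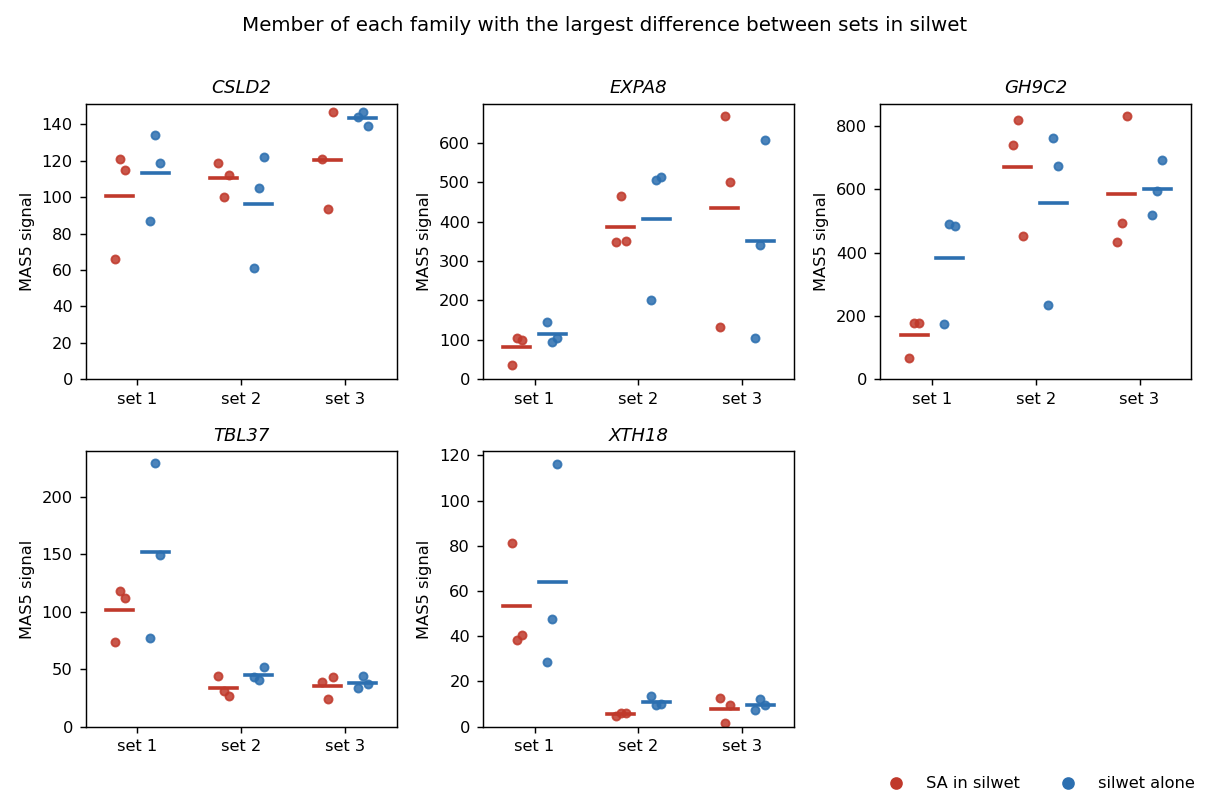
MAS5 signal (linear, axis from 0) on each of the 18 arrays for the member of each family with the largest difference between sets on silwet arrays, PME entries aside, with SA arrays in red to the left of silwet arrays in blue (points, arrays; bars, means of 3 arrays). TBL37 and XTH18 are high on all 6 arrays of set 1, and EXPA8 lies at or below 146 on all 6 of them and at or above 340 on 9 of the 12 later ones.

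On SA arrays alone, 15 of the 40 tested members differed between sets (28.9% of all probe sets), 13 of them with set 1 lower than the later sets and 2, PME61 and TBL37, with set 1 higher. Among all probe sets called there, 2127 were lower in set 1 and 1818 higher. These SA arrays of set 1 also enter the comparison with silwet, and 6 of the 15 are among the 7 members called there. GH9C2 differed by 2.20 ± 0.45 in set 2 minus set 1 and by 1.99 ± 0.45 in set 3 minus set 1 on SA arrays (SE; limma adjusted p = 0.00161 and 0.00272), comparisons in which 27.5% and 31.6% of all probe sets passed. On silwet arrays the same differences were 0.49 ± 0.45 and 0.75 ± 0.45 and did not pass (SE; limma adjusted p = 0.825 and 0.649). Its SA difference of set 1 minus that of the later sets was -1.47 ± 0.55 (SE; limma adjusted p = 0.114, or 0.0106 with the arrays paired).

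EXPA8 showed its low values of set 1 under both treatments. On SA arrays it averaged 80.8 ± 38.0 in set 1, 388 ± 67 in set 2 and 434 ± 274 in set 3, and on silwet arrays 115 ± 27, 407 ± 179 and 351 ± 252 (SD, n = 3 each). Set 2 minus set 1 was 2.14 ± 0.57 on SA arrays and 1.60 ± 0.57 on silwet arrays (SE; limma adjusted p = 0.00935 and 0.387), and the SA difference of set 1 minus that of the later sets, which tests the change of the SA effect itself, was -0.69 ± 0.69 (SE; adjusted p = 0.609). Replicate 1 of set 3 was low under both treatments, at 132 on the SA array and 104 on the silwet array.

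The other 35 members lay below the filter, and 33 of them had group means of at most 22.4 in every set and treatment. XTH18 (AT4G30280), the member of its family with the largest difference between sets on silwet arrays, had 81.0, 38.3 and 40.5 on SA arrays and 28.5, 47.4 and 116 on silwet arrays of set 1. In sets 2 and 3 all 12 arrays lay between 1.50 and 13.5. When all 22746 probe sets were tested, XTH18 differed between sets on silwet arrays (limma adjusted p = 0.0424; 0.462% of all) and on SA arrays (adjusted p = 0.00141; 17.4% of all), while SA minus silwet in set 1 was -0.11 ± 0.31 (SE; adjusted p = 0.902).

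In that same test of every probe set, 5 of the 75 members were called in set 1 (7.11% of all), 1 higher (4.33% of all) and 4 lower (2.79% of all). EXLA2 (AT4G38400), an expansin-like protein named after its values were seen, was the only member of these below the filter. It had 2.26, 1.84 and 0.64 on SA arrays and 9.82, 14.2 and 6.71 on silwet arrays of set 1, at -0.57 ± 0.17 (SE; limma adjusted p = 0.0494). In sets 2 and 3 its SA arrays ran from 12.4 to 35.1 and its silwet arrays from 19.5 to 34.8.

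Lists of other wall genes matched 18 named probe sets, of which 7 matched by letters only and 11 were wall genes, 8 of them tested. In set 1, 1 of the 8 was called higher (6.8% of all probe sets tested) and none lower (6.05% of all). That gene was CCR2, which encodes a cinnamoyl-CoA reductase of lignin synthesis. It averaged 250.0 ± 86.7 on SA arrays and 42.2 ± 36.7 on silwet arrays of set 1 (SD, n = 3 each). The difference was 2.32 ± 0.35 (SE), given as a description. In sets 2 and 3 its group means ran from 3.47 to 10.8. Without the SA arrays of set 1, the mean log2 value of CCR2 lay below the filter. CCR2 was thus in the fit only through its high SA arrays of set 1, and its call is no support for a difference. COB, which orients cellulose deposition, differed by -0.43 ± 0.15 (SE; limma adjusted p = 0.0705, and 0.0129 with the pairs). The other 6 ranged in set 1 from -0.27 to 0.38, and none passed.

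The labels name no tissue, and of 8 leaf markers the probe table named 3, RCA, LHCB4.1 and LHCB4.2. Their summed signal was high on every array, with 4968 to 7454 on SA arrays and 6065 to 9074 on silwet arrays of set 1, which overlapped. The root marker PYK10, the 1 of 6 that was named, ran from 32.4 to 228 over all arrays. Markers listed for seed, flower, xylem and epidermis were looked up, but the probe table named none of them, so these tissues could not be checked. The part of a changed tissue makeup in the results was not tested.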

How the data were processed

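The authors deposited MAS5 signals, a linear intensity per probe set, for 18 ATH1 arrays, per the submitters' processing notes, which give no version. In the deposited table the mean after trimming 2% at each end was 100.01 on every array. Gene names came from GEO's table for the array (13513 probe sets with 1 gene, 503 with several, 8730 unnamed), updated through RefSeq's TAIR10.1 table, in which 13436 were found, including all 75 members. The members and gene lists were chosen with earlier results of these data known.

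Signals were transformed as log2(signal + 16). The 13647 Arabidopsis probe sets whose mean fell in the upper 60% were fitted with limma 3.58.1 in R 4.3.3 on the 6 groups of treatment by serial set (lmFit, eBayes with a mean-variance trend, 12 residual degrees of freedom), two-sided, with Benjamini-Hochberg adjustment over all probe sets tested and a threshold of 0.05. The pooled comparison used the 2 treatments only. Arrays were grouped by the treatment and serial number in the titles. The fits were also run on simulated data whose errors were independent between arrays. That run could not check the fit with pairs for arrays that correlate within pairs.

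The replicate number and serial set in the titles give 9 pairs of SA and silwet arrays. Deviations from the group means correlated within every pair, at 0.129 to 0.770, so the pairs were accepted and also fitted as a block, with 6 residual degrees of freedom. Named genes were the members called in an SA comparison, up to 2 members per family with the smallest adjusted p in set 1, those with the highest mean signal or the largest set difference on silwet arrays, and all of a family of 3 or fewer, 19 in all. Alternatives were pseudocounts of 1 and 64, no filter, quantile normalization, scaling to the 75th percentile, blocks of pairs or of replicate number, and leaving out each array or replicate number. Sequences were not used here.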

Additional observations from a re-analysis of the deposited data

Results flagged for a closer look

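For 2 of the 40 tested members the SA difference of set 1 departed from that of the later sets. The test was of the difference itself, set 1 minus the mean of sets 2 and 3, and 7.94% of all probe sets passed. PME61 stood at 1.09 ± 0.22 on the log2 scale (SE; limma adjusted p = 0.00797), with SA minus silwet at 1.02 in set 1, 0.02 in set 2 and -0.17 in set 3. EXPA9 stood at -0.80 ± 0.24 (SE; limma adjusted p = 0.0489), with SA minus silwet at -0.65 in set 1, 0.40 in set 2 and -0.11 in set 3. The EXPA9 value passed narrowly, and the member lost this call under several alternatives.

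Dixon's criterion was applied to the 9 SA and the 9 silwet arrays of the 40 tested members and XTH18, 82 groups in all, and in 4 of them an array lay far from the others, where chance gives about 1 in 20. EXLB1, an expansin-like protein, had 493 on silwet replicate 1 of set 3, and the other 8 silwet arrays ran from 67.3 to 128. EXPB3, a beta-expansin, had 37.7 on silwet replicate 1 of set 1, with the other silwet arrays from 94.5 to 167. EXPA16 had 19.8 on SA replicate 1 of set 3, with the other SA arrays from 32.1 to 42.1. TBL18 had 28.6 on SA replicate 2 of set 3, with the other SA arrays from 51.3 to 83.8. On the SA array of the same pair, EXLB1 had 261 and EXPB3 had 38.1. On the silwet array of the same pair, EXPA16 had 17.6 and TBL18 had 50.6. Each group joins 3 sets, so arrays of a set that differ together from the other sets are not found this way.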

How the results depend on the processing

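The count of 7 members called in set 1 stood at 5 to 9 under both pseudocounts, no filter and both scalings. In those fits 7.11% to 13.5% of all probe sets were called. The count rose to 16 with the pairs and 11 with replicate number as a block (27.9% and 17.8% of all probe sets, against 12.8% without a block). Leaving out arrays or replicate numbers gave 0 to 9. It was 3 without replicate 1 of all sets, 0 without replicate 2 and 2 without replicate 3, where 5.14%, 3.08% and 3.95% of all probe sets were called. Among single arrays of set 1 it was 3 without SA replicate 3 (6.98% of all) or silwet replicate 2 (7.38%) and 4 without SA replicate 1 (8.98%). The count of 2 members whose SA difference was specific to set 1 (7.94% of all probe sets) changed with the setting. It fell to 1 with a pseudocount of 1, under quantile normalization, under 75th percentile scaling and without a filter (4.23% of all). With the pairs it was 10 (21.9% of all) and with replicate number 4 (12.5% of all), and it ran from 0 to 4 with arrays left out. The F test of the same question gave 8 with the pairs (18.2% of all) and 0 to 2 with arrays left out. The silwet arrays gave 2 members without a filter (0.462% of all) and 0 to 2 with arrays left out. The SA arrays gave 5 to 17, beside 15 as first fitted (28.9% of all). That count was 7 without SA replicate 1 of set 1, 10 without SA replicate 3, 8 without replicate 2 of all sets and 5 without replicate 3. For these tests between sets, shares over all probe sets were not counted with other pseudocounts or scalings or with arrays left out. Sets 2 and 3 and the pooled comparison gave 0 members throughout. The blocks changed no other call counted here by over 1.5 times.

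PME61, TBL45 and XTH32 kept their set 1 calls under every alternative but the removal of a replicate number, where adjusted p reached 0.0534, 0.122 and 0.133. TBL26 lost its call without SA replicate 3, silwet replicate 2 or silwet replicate 3 of set 1, at an adjusted p of up to 0.0877, and without replicate 2 or 3 of all sets, at up to 0.149. TBL25, TBL39 and EXPA9 lost theirs whichever replicate number was left out, at up to 0.228, 0.234 and 0.242. TBL25 also lost it with a pseudocount of 64 (0.0529) or no filter (0.0654), TBL39 with a pseudocount of 64 (0.0590), no filter (0.0502) or quantile normalization (0.0522), and EXPA9 with no filter (0.0628). Among the tested genes named by the rule and not called in set 1, 3 changed sign with arrays left out. CSLD2 ran from -0.324 to 0.0675, CSLC04 from -0.0298 to 0.138 and EXPA8 from -0.828 to 0.0427. XTH18 and the genes named outside the rule were not in this count. The cause was not tested. Where 1 array of a group was left out, the other groups supply most of the estimate of spread. Signals near background limit the 35 members below the filter.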
